A study of Homo sapiens with 18 samples.

Results

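Genes outside the histone families that went up with FOXO3 shRNA in each of 3 Burkitt lymphoma lines are described here, with the gene pair that lies under one of them. They are DYNLRB1, LGALS3BP and the readthrough gene NME1-NME2, and beside it NME1 and NME2, whose exons it joins. The first 3 were chosen by their deposited rises in all 3 lines, and NME1 and NME2 were added because they are the parents of the readthrough. All 5 members were measured in every line, 5 of 14549 genes present in all 3 tables and of 17561 present in any.

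The study compared a short hairpin RNA (shRNA) against FOXO3 with a scrambled shRNA, both delivered by lentivirus, in the established lines BL-41, Namalwa and Jiyoye. Burkitt lymphoma is a MYC-driven cancer of germinal centre B cells, FOXO3 is a forkhead transcription factor, and Epstein-Barr virus is carried by Jiyoye and Namalwa but not by BL-41. The vector, pRSI12-U6-shUbiC-TagRFP, was the same in both arms. Transduced cells were sorted on day 4, and each of the 6 groups (scrambled or FOXO3 shRNA, in 3 lines) had 3 libraries of poly(A)-selected RNA, 18 in all. The labels do not give the FOXO3 hairpin's sequence or the number of hairpins, nor whether the 3 libraries of a group came from separate cultures, so the deposited p-values may measure technical spread only.

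The authors' tables give 1 normalized value per arm and none per library, so no SD between libraries can be given. The SE given here was recovered from each deposited fold change and its p-value. A gene is called risen or fallen where the adjusted p of DESeq2 was under 0.05. The summed value of an arm lay between 17065755 and 18459745, and the depth of single libraries was not used here. FOXO3 itself fell in BL-41 and Namalwa and was not called in Jiyoye (471 and 384), at -0.79, -1.09 and -0.30 on the log2 scale in the authors' deposited tables (recovered SE 0.14, 0.16 and 0.15; adjusted p by DESeq2 3.15e-07, 2.49e-09 and 0.187). All 7 B cell markers searched for were present in each table, but EBF1 was near absent in Jiyoye, at 2.49 and 2.82. T cell, erythroid and fibroblast markers summed to at most 76.2 in any arm, except COL1A1 in Jiyoye, which had 174 with scrambled and 146 with FOXO3 shRNA. The keratin gene KRT8 was also high in Jiyoye, at 2978 and 1823 in the authors' deposited table, while EPCAM was at most 1.91 in every arm.

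Dynein is the motor that carries cargo towards the minus ends of microtubules, and DYNLRB1 is one of its roadblock light chains, a small dimer bound to the intermediate chains. LGALS3BP is a secreted, heavily glycosylated protein that binds galectins and integrins and belongs to the genes that interferon can induce. NME1 and NME2 code for the A and B chains of nucleoside diphosphate kinase, which pass phosphate from ATP to other nucleoside diphosphates, and both are known MYC targets. A readthrough gene is annotated where transcription runs on from one gene into the next and splicing joins their exons.

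Sequences are shown here because they set which reads can tell the members apart. NME1 and NME2 lie in tandem on chromosome 17 from 51153559 to 51171744 (hg38), on the plus strand, and NME1-NME2 covers both. In GENCODE 44 the readthrough transcript has 9 exons, and a single junction, from exon 5 to exon 6, is in no NME1 or NME2 transcript. It joins the base at 51161272 to that at 51166827 across an intron of 5554 bases and lies within the coding sequence. With 20 bases on each side, those from NME1 in lower case and those from the NME2 side in capitals, it reads as follows.

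NME1-NME2 junction: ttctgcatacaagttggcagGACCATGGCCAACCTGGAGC

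Of the 1163 different words of 31 bases in the readthrough transcript, 1139 (97.9%) also occur in NME1 or NME2 transcripts, and only 24 are its own. NME2 in turn shares 574 of its 660 words (87.0%) with other genes and NME1 shares 390 of 860 (45.3%). Reads from most of the locus can therefore belong to more than 1 of these genes, the labels do not say how the counting divided them, and each single value of NME1, NME2 and NME1-NME2 is uncertain. The coding sequences of NME1 and NME2, 456 bases each, are identical at 369 aligned positions (80.9%), and their longest identical stretch has 23 bases.

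NME1 and NME2 shared stretch: gccatggtctgggaggggctgaa

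DYNLRB1 lies on chromosome 20 from 34515602 to 34540958 on the plus strand, and its canonical transcript has 4 exons. GENCODE 44 also annotates a readthrough gene there, from 34363271 to 34540923, that spans ITCH and DYNLRB1 and shares 558 of the 632 words (88.3%) of the DYNLRB1 transcript. This readthrough gene was not analysed here. Its paralog DYNLRB2 has a coding sequence of the same length, 288 bases, with 70.5% identity and no identical stretch over 17 bases. LGALS3BP lies on chromosome 17 from 78971255 to 78979923 on the minus strand, with 6 exons, and none of its 2172 words was found in a transcript of another gene.

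The regions around the start sites are shown because DYNLRB1, LGALS3BP and NME1-NME2 were picked for shared rises, and NME1 starts where NME1-NME2 does. Each runs from 250 bases before to 50 after a RefSeq start (GRCh38.p14), is written in the direction of transcription, and has matches to the searched motifs in capitals. NME1 and NME1-NME2 share the first of them, at chr17:51153309-51153608 on the plus strand. That of LGALS3BP is at chr17:78979874-78980173 on the minus strand, and that of the canonical DYNLRB1 transcript at chr20:34516172-34516471 on the plus strand.

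NME1 and NME1-NME2 start region: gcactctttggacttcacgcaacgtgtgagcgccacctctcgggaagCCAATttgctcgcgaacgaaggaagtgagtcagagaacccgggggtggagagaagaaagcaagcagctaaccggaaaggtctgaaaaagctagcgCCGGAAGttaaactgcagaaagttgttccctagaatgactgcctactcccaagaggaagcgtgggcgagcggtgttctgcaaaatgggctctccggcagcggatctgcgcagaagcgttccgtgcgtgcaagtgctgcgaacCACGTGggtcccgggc
LGALS3BP start region: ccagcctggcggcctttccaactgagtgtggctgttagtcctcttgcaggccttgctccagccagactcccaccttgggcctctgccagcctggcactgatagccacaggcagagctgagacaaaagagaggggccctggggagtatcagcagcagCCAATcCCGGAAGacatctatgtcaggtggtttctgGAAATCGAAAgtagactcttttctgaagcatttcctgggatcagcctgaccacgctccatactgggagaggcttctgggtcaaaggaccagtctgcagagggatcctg
DYNLRB1 start region: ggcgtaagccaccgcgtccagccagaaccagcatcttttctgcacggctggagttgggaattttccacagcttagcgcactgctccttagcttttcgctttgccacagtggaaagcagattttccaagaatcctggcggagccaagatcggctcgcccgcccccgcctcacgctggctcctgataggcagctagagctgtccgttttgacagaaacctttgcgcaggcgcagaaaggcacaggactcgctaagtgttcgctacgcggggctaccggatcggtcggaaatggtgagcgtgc

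Motifs were searched on both strands as CCAAT (the CCAAT box), CACGTG (the E-box that MYC can bind), CCGGAAG (an ETS site), GTAAACA and GTAAANA (forkhead sites, every match of the former being one of the latter), GAAANNGAAA (the core of the interferon-stimulated element) and TATAAA (the TATA box). They were chosen with these regions in view. The NME1 region held CCAAT at position -203 from the start, CCGGAAG at -108 and CACGTG at 35, and the LGALS3BP region held CCAAT at -94, CCGGAAG at -88 and GAAANNGAAA at -58. No letters of the search were found in the DYNLRB1 window shown, while the window of its other RefSeq start, at chr20:34515352-34515651, held CCAAT at -2 and GTAAANA at -186. The windows of the RefSeq starts of NME2, which are not shown, were searched too and held no match to any of these motifs, the E-box included. Over 35116 such windows of all genes, CCAAT was in 34.6%, CACGTG in 7.26%, CCGGAAG in 10.3%, GTAAACA in 3.42%, GTAAANA in 10.8%, GAAANNGAAA in 3.57% and TATAAA in 11.5%. A match is a run of letters, and binding was not measured.

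DYNLRB1, the dynein light chain, had higher values with FOXO3 shRNA by 2.77-fold to 3.96-fold. In the authors' deposited table of BL-41 its value was 375 with scrambled and 1439 with FOXO3 shRNA. Namalwa had 548 and 1520, and Jiyoye 376 and 1488, in the authors' deposited tables. With FOXO3 shRNA the highest line was 1.06 times the lowest, and with scrambled shRNA 1.46 times, although the tables were normalized separately. The log2 fold changes in the authors' deposited tables were 1.94, 1.47 and 1.99 (BL-41, Namalwa and Jiyoye), with recovered SE of 0.12, 0.12 and 0.15, or 3.83-fold, 2.77-fold and 3.96-fold. Ordered by fold change, DYNLRB1 was at place 94 of 16001 genes in BL-41, 17 of 15365 in Namalwa and 16 of 16787 in Jiyoye.

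LGALS3BP, the binding partner of galectins, was the least abundant member. In the authors' deposited tables BL-41 had 56.5 with scrambled and 229 with FOXO3 shRNA, Namalwa 74.5 and 178, and Jiyoye 187 and 434. Jiyoye with scrambled shRNA thus lay above Namalwa with FOXO3 shRNA, with both tables normalized separately. Its log2 fold changes were 2.02, 1.26 and 1.21 in the authors' deposited tables, with recovered SE of 0.27, 0.22 and 0.19. The fold changes in Namalwa and Jiyoye lay within 1 SE of each other. Beside LGALS3BP, 3 of 5 myeloid markers (CD14, LYZ and CD68) rose in BL-41, where the list summed to 96.2 with scrambled and 224 with FOXO3 shRNA. In Jiyoye 1 of 5 rose (CD14, 5.66 and 14.2) and the list summed to 257 and 318. CSF1R (71.8 and 105), LYZ and ITGAM were higher there and CD68 was lower (log2 fold change -0.54), none of them called. Over all genes 14.5% rose in BL-41 and 8.69% in Jiyoye. In Namalwa the myeloid list summed to 173 and 172, with none called. Of 7 B cell markers, 3 fell in BL-41 (CD79B, CD22 and EBF1) and 2 rose in Jiyoye (CD79A and CD79B). The part of myeloid transcripts in the LGALS3BP rise was not tested.

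NME1-NME2, the readthrough, had values of 397 and 1470 in BL-41, 353 and 845 in Namalwa and 399 and 1238 in Jiyoye in the authors' deposited tables. The scrambled arms lay close together, the highest 1.13 times the lowest, and the FOXO3 shRNA arms spread more widely, at 1.74 times. Its log2 fold changes were 1.89, 1.26 and 1.63 in the authors' deposited tables, with recovered SE of 0.16, 0.12 and 0.15.

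NME1 did not share this pattern. Its values in the authors' deposited tables were 2297 and 1308 in BL-41, 3303 and 3853 in Namalwa and 1268 and 1194 in Jiyoye. The log2 fold change was -0.81 in BL-41 in the authors' deposited table, the only fall among the members, and 0.22 and -0.09 in Namalwa and Jiyoye, not called there (recovered SE 0.19, 0.14 and 0.21). NME2 had 4398 and 4499 in BL-41, 5642 and 6411 in Namalwa and 5443 and 6917 in Jiyoye in the authors' deposited tables. Its log2 fold changes were 0.03, 0.18 and 0.35 there, of which that in Jiyoye was called (recovered SE 0.11, 0.10 and 0.11).

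**Figure D1:**
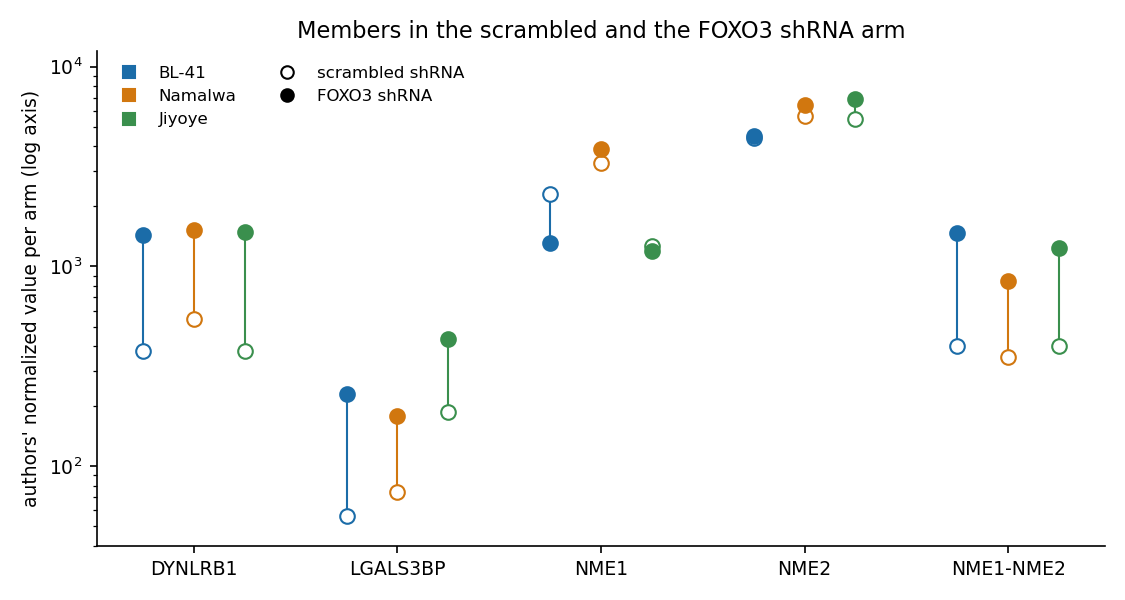
Normalized value of each member in the scrambled arm (open circles) and the FOXO3 shRNA arm (filled circles) of BL-41, Namalwa and Jiyoye, on a log axis, 1 pooled value per arm with no error bar. DYNLRB1 reached 1439 to 1520 with FOXO3 shRNA in the 3 lines, and NME1 was lower with FOXO3 shRNA in BL-41, at 1308 against 2297.

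**Figure D2:**
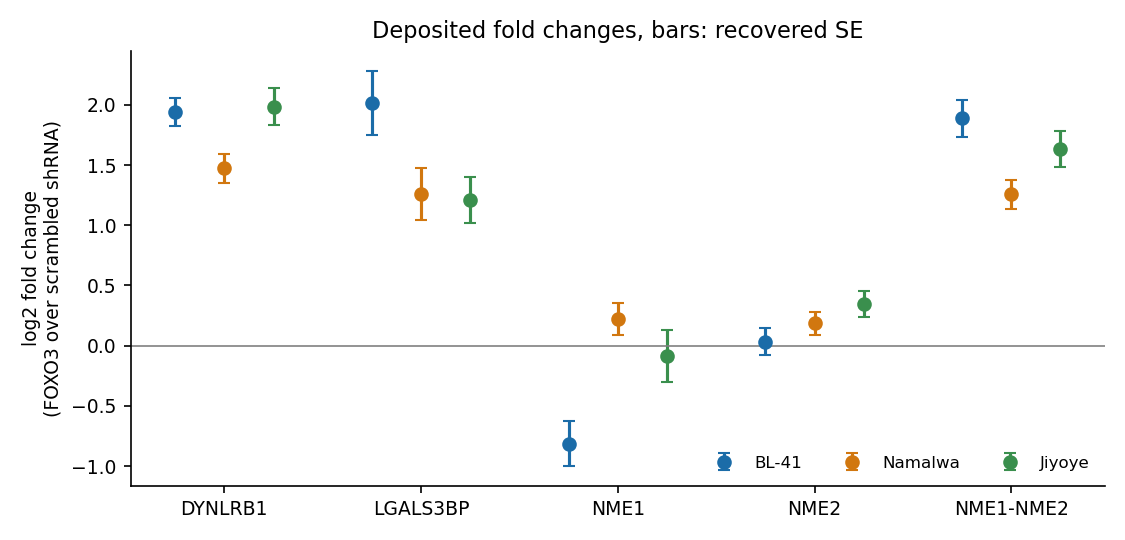
Deposited log2 fold change of FOXO3 over scrambled shRNA for each member and line, with bars of 1 recovered SE on each side. DYNLRB1, LGALS3BP and NME1-NME2 lie between 1.21 and 2.02 in all lines, and NME1 and NME2 between -0.81 and 0.35.

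By the authors' DESeq2 call, 3 members rose and 1 fell in BL-41, where 14.5% of all genes tested rose and 14.2% fell. In Namalwa 3 rose, against 2.6% of all genes (3.81% fell), and in Jiyoye 4 rose, against 8.69% (8.7% fell). Genes called up in all 3 lines numbered 215 of 14549 (1.48%), of which 202 had a mean of at least 100 in every line. Since 3 members were picked for these very rises, their calls are a description. Among the 196 such genes that are not histone genes by symbol, DYNLRB1, NME1-NME2 and LGALS3BP took places 1, 2 and 3 by mean log2 fold change, at 1.80, 1.59 and 1.50. Without that minimum, AOC3 (1.92) stood above DYNLRB1, CRABP2 (1.62) between it and NME1-NME2, and SNURF (1.56) and NHLH1 (1.53) between NME1-NME2 and LGALS3BP, all singled out after their values were seen. With the minimum, the next below LGALS3BP were the histone gene H2AFX at 1.38 and, among genes that are not histone genes, ATP6V0C, a proton pump subunit, at 1.32 and BCL9L, a beta-catenin cofactor, at 1.26, and the next above DYNLRB1 were the histone genes HIST2H2AA3 and HIST2H2AA4, near-identical copies with the same deposited values, at 2.62. Differences between the lines were not tested, since the tables hold no value per library.

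Levels of different genes were compared per kilobase of the deposited gene length. With scrambled shRNA NME2 was highest in every line (5609, 7214 and 6737 per kilobase in BL-41, Namalwa and Jiyoye), above 99.0%, 99.1% and 99.1% of genes. NME1 came next (2755, 4038 and 1542 per kilobase), then DYNLRB1 (519, 758 and 522), NME1-NME2 (364, 323 and 366) and LGALS3BP (24.8, 32.7 and 82.2). With FOXO3 shRNA the order changed in BL-41 and Jiyoye. There DYNLRB1, at 1987 and 2066 per kilobase, stood above NME1, at 1569 and 1453. Whether neighbours in this order differ beyond the spread between libraries could not be tested with 1 value per arm. DYNLRB1 moved from above 84.2% to above 97.0% of genes in BL-41, and LGALS3BP from 35.8% to 51.2%.

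Because NME1 and NME2 each share words with NME1-NME2, the values of the 3 were also summed over the locus. In BL-41 this sum of the authors' values was 7092 with scrambled and 7277 with FOXO3 shRNA, a log2 ratio of 0.04. Within it the readthrough gained 1072 while NME1 fell by 989 and NME2 gained 101. The rise of NME1-NME2 in BL-41 thus went with a fall of its parent NME1 of nearly the same size, at a nearly level sum. In Namalwa the sum went from 9298 to 11109 (log2 ratio 0.26), with gains of 492 for the readthrough, 549 for NME1 and 770 for NME2. In Jiyoye it went from 7110 to 9349 (0.39), with gains of 838 for the readthrough and 1474 for NME2 and a fall of 73.5 for NME1. The log2 ratio of the sum was smaller than the fold change of NME1-NME2 in each line. That follows from NME1-NME2, picked for its rise, having the largest fold change of the 3 genes summed.

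As a share of the locus, NME1-NME2 held 5.60% with scrambled and 20.2% with FOXO3 shRNA in BL-41. The same pair of shares was 3.80% and 7.61% for Namalwa, then 5.62% and 13.2% for Jiyoye. NME1 held 32.4% and 18.0% of the locus in BL-41, 35.5% and 34.7% in Namalwa and 17.8% and 12.8% in Jiyoye. NME2 held the largest share in every arm, 62.0% and 61.8% in BL-41, 60.7% and 57.7% in Namalwa, and 76.6% and 74.0% in Jiyoye. These are shares of moderated arm values and carry no error.

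**Figure D3:**
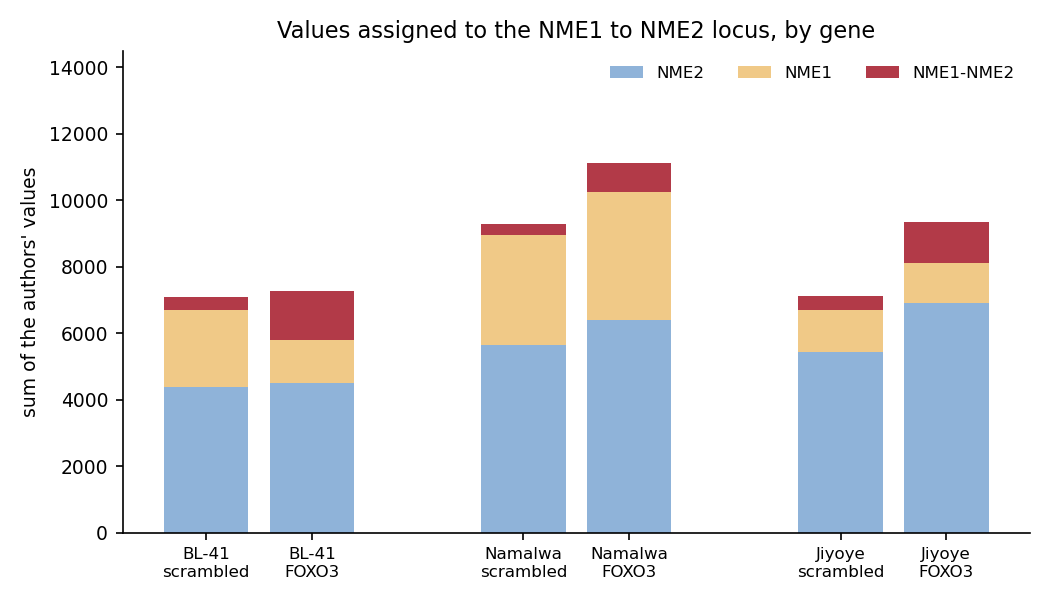
Stacked bars of the authors' values for NME2, NME1 and NME1-NME2 in each arm of the 3 lines, from 0, with no error since each arm has 1 pooled value. In BL-41 both bars have nearly the same height (7092 and 7277), and the part of NME1-NME2 goes from 5.60% to 20.2% while that of NME1 goes from 32.4% to 18.0%.

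Other readthrough genes, those whose symbol joins the symbols of a pair of tested genes, were set beside NME1-NME2. In BL-41 54 were tested, of which 13 rose and 3 fell by the authors' DESeq2 call. In Namalwa 4 of 58 rose and 2 fell, and in Jiyoye 10 of 61 rose and 4 fell, each count of rises with NME1-NME2 among them. Over all genes 14.5%, 2.6% and 8.69% rose and 14.2%, 3.81% and 8.7% fell in BL-41, Namalwa and Jiyoye. The median log2 fold changes of the readthrough genes were 0.16, 0.06 and 0.28, against 0.02, -0.00 and 0.01 over all genes tested in BL-41, Namalwa and Jiyoye. Many are low: with a mean of at least 100, 17 were left in each line, and of these 3, 2 and 5 rose and 3, 2 and 3 fell. NME1-NME2 had the place 4, 2 and 3 by fold change among all readthrough genes of the lines, and 2, 1 and 1 among those with that mean. Its fold change exceeded the log2 ratio of its summed parents by 2.09, 1.06 and 1.36, where the median of that excess over readthrough genes was 0.37, 0.11 and 0.35. Since NME1-NME2 was picked for its rise, a high place and a large excess follow from the choice and are a description.

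The readthrough genes of largest fold change in any line were TGIF2-C20orf24, RPS10-NUDT3 and CORO7-PAM16. TGIF2-C20orf24 had 2.28, 1.31 and 0.54 in the authors' deposited tables, the last not called (adjusted p = 0.368 by DESeq2). RPS10-NUDT3 had 2.13, -0.08 and 1.00, not called in Namalwa (adjusted p = 0.945 by DESeq2 in the authors' deposited table). CORO7-PAM16 had -0.62, 0.80 and 2.12 in the authors' deposited tables and was called in Jiyoye only. None of these was called in all 3 lines, while NME1-NME2 was picked for its rise in all 3. C21orf59-TCP10L also rose and ANKHD1-EIF4EBP3 fell in all 3 lines. Like NME1-NME2, each readthrough gene shares exons with its parents.

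**Figure D4:**
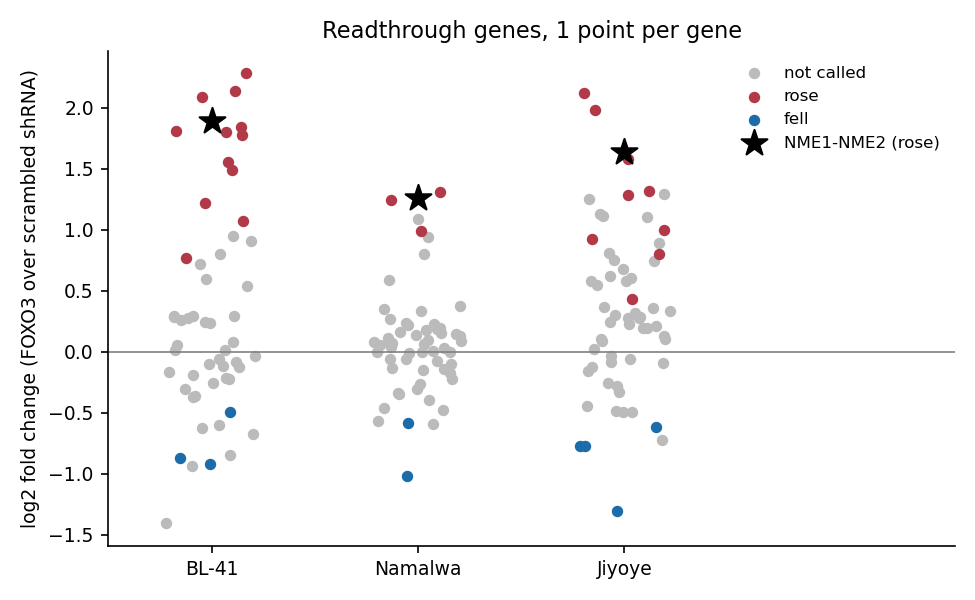
Deposited log2 fold change of each readthrough gene (1 point per gene, spread sideways for legibility) in BL-41, Namalwa and Jiyoye, coloured by the authors' call, with NME1-NME2 as a star. NME1-NME2 lies at 1.89, 1.26 and 1.63, and 13, 4 and 10 readthrough genes rose.

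Genes next to the members along the chromosome were read beside the shares over all genes, 14.5% risen and 14.2% fallen in BL-41, 2.6% and 3.81% in Namalwa, and 8.69% and 8.7% in Jiyoye. Of 11 neighbours tested in BL-41, 1 rose and 2 fell, in Namalwa 1 of 10 fell, and in Jiyoye 1 of 12 rose, by the authors' DESeq2 call. ITCH, a ubiquitin ligase gene that ends 3.83 kb before DYNLRB1, stood at 0.13, 0.00 and 0.13 on the log2 scale in the authors' deposited tables of BL-41, Namalwa and Jiyoye (recovered SE 0.13, 0.10 and 0.14). MAP1LC3A, the nearest tested gene after DYNLRB1 at 5.89 kb, was tested in Jiyoye only. It had low values of 12.1 and 18.1 there, at 0.58 in the authors' deposited table (recovered SE 0.44), and was not called. PIGU, which codes for a subunit of the GPI transamidase, lies 19.6 kb after DYNLRB1 and fell in BL-41 by 0.81 in the authors' deposited table (DESeq2 adjusted p = 7.93e-06). CANT1, a nucleotidase gene 11.8 kb after LGALS3BP by coordinate, had 0.07, -0.04 and 0.02 in the authors' deposited tables. TIMP2, a metalloproteinase inhibitor gene, fell in Namalwa by 0.68 in the authors' deposited table (DESeq2 adjusted p = 0.046). On the sides of the NME locus, SPAG9 had 0.07, -0.00 and -0.16 and MBTD1 had 0.11, 0.13 and -0.08 in the authors' deposited tables, none called. TOB1, an antiproliferative gene 286 kb before NME1, rose in BL-41 and Jiyoye, by 0.96 and 0.67 in the authors' deposited tables (DESeq2 adjusted p = 9.26e-10 and 0.000425). UTP18, a ribosome biogenesis gene, fell in BL-41 by 0.38 in the authors' deposited table (DESeq2 adjusted p = 0.0135).

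**Figure D5:**
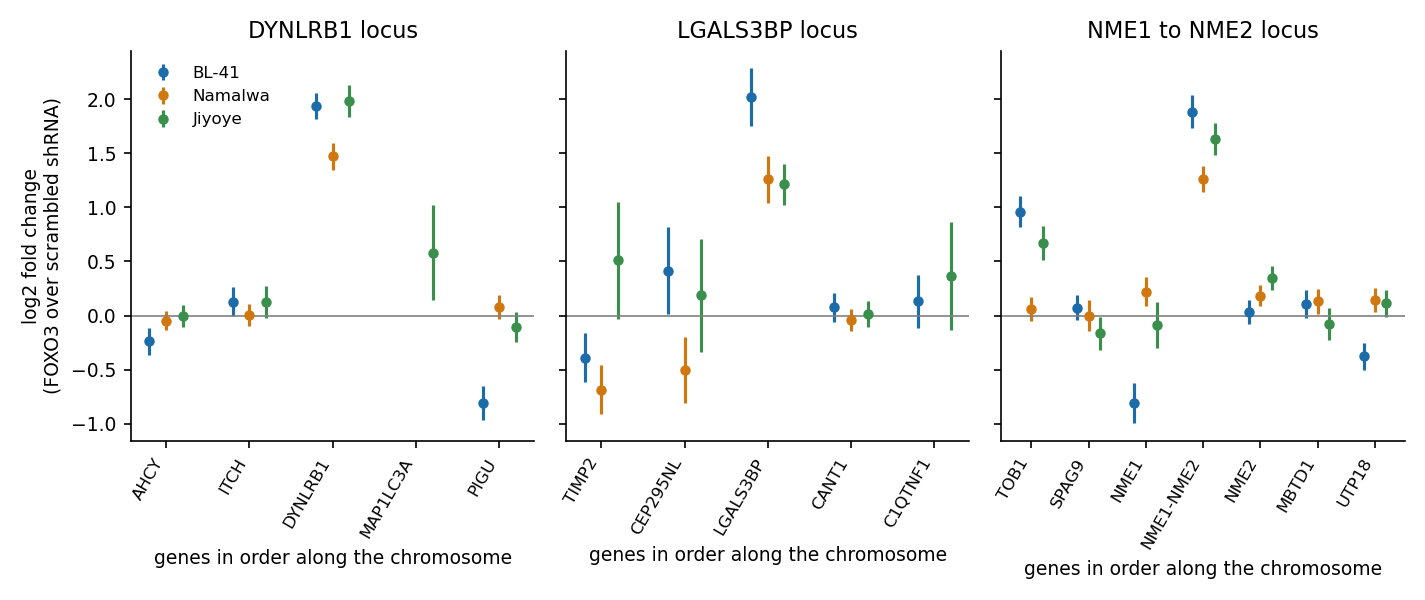
Deposited log2 fold change, with bars of 1 recovered SE, of the members and of the 2 tested genes on each side of each locus, in order along the chromosome and not to scale. DYNLRB1 lies at 1.47 to 1.99 while the adjacent ITCH lies at 0.00 to 0.13.

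The subunits that work with DYNLRB1 were taken as a list, and the same shares over all genes are the background of its counts and of those of the lists that follow. Of the other subunits of cytoplasmic dynein, 2 of 9 tested rose and 1 fell in BL-41, 1 of 8 rose in Namalwa and 2 of 10 rose in Jiyoye by the authors' DESeq2 call, with medians of 0.09, 0.14 and 0.02. DYNLL2, an LC8 light chain, was called up in each line. Its values in the authors' deposited tables were 679 and 1430 in BL-41, 633 and 1021 in Namalwa and 705 and 1297 in Jiyoye. Its log2 fold changes in the authors' deposited tables were 1.07, 0.69 and 0.88 (recovered SE 0.17, 0.11 and 0.13; adjusted p by DESeq2 3.48e-09, 3.16e-08 and 3.12e-09). The paralogous light chain gene DYNLL1 fell in BL-41 by 0.38 in the authors' deposited table (DESeq2 adjusted p = 0.0123) and had 0.05 and -0.26 in the other lines. The heavy chain gene DYNC1H1 had 0.22, 0.03 and 0.07, and the intermediate chain gene DYNC1I2, to whose product roadblock chains bind, had -0.18, -0.09 and -0.01 in the authors' deposited tables, none called. DYNC1LI2 rose in BL-41 by 0.79 and DYNC1LI1 in Jiyoye by 0.45 in the authors' deposited tables, both light intermediate chains (adjusted p = 2.28e-06 and 0.00295 by DESeq2). DYNLRB2 was at 0.4 or less in BL-41 and at most 2.7 in Jiyoye in the authors' deposited tables, and it was not among the genes tested in Namalwa.

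Dynactin and other regulators of dynein, which bind the motor to its cargo, were the next list. Of 21 tested, 4 rose in BL-41 and 1 each in Namalwa and Jiyoye by the authors' DESeq2 call, with medians of 0.22, 0.05 and 0.07. At an unadjusted p under 0.05 by DESeq2, 10 were higher and 0 lower in BL-41, 1 and 1 in Namalwa, and 3 and 2 in Jiyoye. The shares of all genes at that threshold are not given here. BICD2, a cargo adaptor, rose in BL-41 and Namalwa by 0.80 and 0.34 in the authors' deposited tables (DESeq2 adjusted p = 4.77e-05 and 0.0396) and had 0.07 in Jiyoye. Of the dynein of cilia, which also uses roadblock chains, 2 of 5 subunits fell in BL-41 and in Jiyoye and 1 in Namalwa, with medians of -0.44, -0.30 and -0.45. DYNC2H1, its heavy chain gene, fell in each line, by 1.23, 0.77 and 1.40 in the authors' deposited tables (DESeq2 adjusted p = 0.000728, 0.0441 and 0.000181), at values of 26.2 to 96.7.

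Members of the NME family outside the locus were called in some lines. NME6 fell in BL-41 by 0.45 in the authors' deposited table (DESeq2 adjusted p = 0.0107). NME3 and NME4, the latter a mitochondrial kinase, rose in Jiyoye by 0.54 and 0.52 in the authors' deposited table (DESeq2 adjusted p = 0.00583 and 0.00259). In Namalwa 0 of 6 were called by DESeq2, also at an unadjusted p under 0.05. Among the genes of nucleotide synthesis, whose products feed the NME kinases, 4 rose and 10 fell of 33 in BL-41, 3 fell of 33 in Namalwa, and 5 rose and 3 fell of 32 in Jiyoye, with medians of -0.14, 0.03 and -0.08. RRM2, the small subunit of ribonucleotide reductase, fell in each line, by 0.94, 0.54 and 1.59 in the authors' deposited tables (DESeq2 adjusted p = 6.11e-07, 0.00601 and 9.6e-15). CMPK1, a kinase that makes pyrimidine diphosphates, rose in BL-41 and Jiyoye by 0.64 and 0.40 in the authors' deposited tables (DESeq2 adjusted p = 7.01e-07 and 0.0123). IMPDH2, an enzyme of guanine nucleotide synthesis, rose in BL-41 by 0.81 in the authors' deposited table (DESeq2 adjusted p = 7.04e-08).

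MYC targets were listed because NME1 and NME2 belong to them. Of 30 such genes, 8 rose and 3 fell in BL-41, 2 rose in Namalwa, and 2 rose and 1 fell in Jiyoye by the authors' DESeq2 call, with medians of 0.14, 0.21 and 0.09. At an unadjusted p under 0.05 by DESeq2, 8 were higher and 4 lower in BL-41, 11 and 0 in Namalwa, and 3 and 2 in Jiyoye. The shares of all genes at that threshold are not given here. SRM, the spermidine synthase gene, rose in each line, by 0.34, 0.52 and 1.20 in the authors' deposited tables (DESeq2 adjusted p = 0.0456, 0.0227 and 1.02e-07). GNL3, a nucleolar GTPase gene, rose by 0.58, 0.33 and 0.41 in the authors' deposited tables (DESeq2 adjusted p = 0.000278, 0.0396 and 0.00738). Neither NME1 nor NME2 was called up in all lines.

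Galectins, the partners of LGALS3BP, were called once each in BL-41 and Jiyoye. LGALS1 rose in BL-41 by 0.98 in the authors' deposited table, from 335 to 660 (DESeq2 adjusted p = 2.43e-06). LGALS9 rose in Jiyoye by 0.93 in the authors' deposited table, from 77.5 to 147 (DESeq2 adjusted p = 0.00179). In Namalwa 0 of 7 were called by DESeq2, also at an unadjusted p under 0.05. LGALS3, for which LGALS3BP is named, was at most 0.9 in the BL-41 and Jiyoye tables and was not among the genes tested in Namalwa. Of the other proteins with the cysteine-rich scavenger receptor domain that LGALS3BP carries, CD6 rose in BL-41 by 0.76 and MSR1 in Jiyoye by 0.88 in the authors' deposited tables (DESeq2 adjusted p = 0.0147 and 0.000142), 1 of 13 and 1 of 14 tested. In Namalwa 0 of 13 were called by DESeq2, with 4 lower at an unadjusted p under 0.05.

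Interferon-stimulated genes were listed because LGALS3BP belongs to them. Of these, 5 of 38 rose and 5 fell in BL-41 by the authors' DESeq2 call, where 14.5% and 14.2% of all genes did. In Namalwa 0 of 37 rose (0 also at an unadjusted p under 0.05 by DESeq2) and 6 fell, where 2.6% and 3.81% of all genes did. In Jiyoye 9 of 38 rose and 3 fell, where 8.69% and 8.7% of all genes did. The medians were 0.16, -0.14 and 0.20 in BL-41, Namalwa and Jiyoye. MX2 and TRIM22, both antiviral, fell in each line, MX2 by 1.08, 0.95 and 0.90 and TRIM22 by 1.26, 0.54 and 0.62 in the authors' deposited tables (DESeq2 adjusted p from 8.29e-13 to 0.0128). DDX58, the RIG-I sensor gene, rose in BL-41 and Jiyoye by 1.78 and 0.57 in the authors' deposited tables (DESeq2 adjusted p = 7.5e-14 and 0.00981) and had 0.07 in Namalwa. The part of interferon in the LGALS3BP rise was not tested.

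The genes with the most similar triple of fold changes were sought by Euclidean distance over the 3 lines, among 8870 genes whose mean value reached 100 in every line. Nearest to DYNLRB1 were NME1-NME2 (distance 0.42), H2AFX, the gene of histone variant H2AX (0.78), and LGALS3BP (0.81). NME1-NME2 was also nearest to LGALS3BP (0.44), before HIST2H2BE (0.58) and ATP6V0C (0.58). Nearest to NME1-NME2 were DYNLRB1, LGALS3BP and ATP6V0C (0.55). That the 3 are close to each other follows from how they were picked. NME1 and NME2 lay at 3.36 and 2.50 from the readthrough, which shares part of its sequence with each, and at 0.95 from each other.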

How the data were processed

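Messenger RNA of 18 libraries was measured by sequencing. SOAPnuke filtering, Bowtie2, RSEM, DESeq2 and hg38 are named per the labels and the series' design text, without version numbers. The authors deposited a table per line, with 1 signal value per arm (never 0, with near-equal sums, so apparently scaled to library size and shrunken), the log2 fold change, the p-value and its adjusted p-value, and the gene length. On the log2 scale, arm ratios differed from the fold changes by at most 1.39e-14. Genes were called at the authors' adjusted p under 0.05, over a whole table. Dividing a fold change by the normal quantile belonging to its p-value gave the SE. Simulated p-values were made with the same formula, so they could check only the arithmetic of the recovery. Whether the deposited p-values relate to the deposited fold changes in this way was not tested. No test was made of the members, whose fold changes chose them. The members and lists were chosen with earlier results of these data known.

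Named genes are the members, FOXO3, up to 3 called genes with the smallest adjusted p of each list (every member of a list of 10 or fewer could be named), the 2 tested genes on each side of a locus, the genes next to the members in the order of shared rises, the 3 nearest by fold change and the 3 readthrough genes of largest fold change. Gene IDs were matched to a RefSeq table of GRCh38.p14 (17521 of 17561), and start regions come from RefSeq. Words of 31 bases of each canonical transcript were searched on both strands of all GENCODE 44 transcripts. Alternatives were a pseudocount of 1, centring on the median gene, a mean of at least 100, an adjusted p under 0.01 and the locus sum without the readthrough. Versions were Biopython 1.88, matplotlib 3.10.9, scipy 1.17.1, pandas 2.3.3, numpy 2.4.6 and Python 3.11.15. A count test had been planned for tables of counts per library.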

Additional observations from a re-analysis of the deposited data

How the results depend on the processing

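The 15 fold changes of members moved by less than 1 recovered SE with a pseudocount of 1 and with centring on the median gene. The 3 log2 ratios of the NME locus, which have no SE, were 0.037, 0.252 and 0.391 under centring (BL-41, Namalwa and Jiyoye). Without centring they were 0.037, 0.257 and 0.395. These settings could hardly move them. The medians were 0.0002, 0.0044 and 0.0041 in BL-41, Namalwa and Jiyoye, and the lowest member value was 56.5. Without the readthrough the locus ratio was -0.21 in BL-41 and 0.27 in Jiyoye, which follows from leaving it out. At an adjusted p under 0.01, 106 genes rose in all 3 lines, 1 neighbour fell in BL-41 and 0 in Namalwa (1 at an unadjusted p under 0.05, DESeq2), 2 readthrough genes rose in Namalwa, and over the 9 lists 1 gene rose in Namalwa and 15 in Jiyoye. With a mean of at least 100 in the line, the readthrough genes that rose were 3, 2 and 5 (BL-41, Namalwa and Jiyoye), where fewer genes enter. No paired analysis was possible because the tables hold 1 value per arm. For the same reason leaving out a library, a count test and other size factors were not run. Read depth per library and the division of reads within the NME locus limit what the values of single genes show.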

Other observations

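A pair of readthrough genes besides NME1-NME2 was called the same way in all 3 lines, out of 47 tested in each. They were singled out after their values were seen. C21orf59-TCP10L rose by 1.49, 1.24 and 1.58 (BL-41, Namalwa and Jiyoye) on the log2 scale in the authors' deposited tables (DESeq2 adjusted p = 0.0469, 0.0438 and 2.17e-06), from low values of 22.2, 7.94 and 35.0 with scrambled shRNA. ANKHD1-EIF4EBP3 fell by 0.92, 0.59 and 0.77 in the authors' deposited tables (DESeq2 adjusted p = 5.69e-05, 2.53e-05 and 6.33e-08), from 1896, 1881 and 1806. Its values with FOXO3 shRNA in the authors' deposited tables were 1003, 1252 and 1057.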
